A study of Mus musculus with 32 samples.

Results

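The genes described here build the elastic fibre of the mouse lung. The list named 10 genes, Eln, Fbn1, Fbn2, Fbln5, Lox, Loxl1, Loxl2, Mfap2, Mfap4 and Ltbp4. It was drawn up from what their proteins do, with earlier results of these data known. Of these, 8 were measured among the 13345 genes tested, and all 8 passed the filter on low signal. Fbn1 had no probe set under its symbol in the platform annotation used, and both probe sets of Loxl2 are shared there with the predicted gene Gm21451, so neither gene was analysed here.

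The study hybridised 32 arrays, 1 per mouse, with RNA from part of the lung of C3H/HeN mice that carried a knockout of glutathione reductase (Gsr-KO, below KO) or not (Gsr-WT, below WT). Lungs were taken at embryonic day 19 (E19) without exposure, with 4 KO and 4 WT animals. Other pups lived with their dams from birth to postnatal day 5 (P5) in 100% oxygen, called hyperoxia, or in room air, and were examined at P5 or, after the exposure had ended, at P56. Each of these 8 groups (KO in hyperoxia, KO in air, WT in hyperoxia and WT in air at either age) held 3 mice. The labels do not describe the knockout allele, the sex of the animals or the litters, and the labelled strain is the same for both genotypes. Gsr encodes the enzyme that returns oxidised glutathione to its reduced form.

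An elastic fibre is a core of cross-linked elastin on a sheath of fibrillin microfibrils. Cells secrete tropoelastin, which gathers into droplets, is placed on the microfibrils with the help of fibulin-5 and the latent TGF-beta binding protein LTBP-4, and is then cross-linked through its lysines by lysyl oxidases, which depend on copper. In the mouse lung most elastin is laid down around birth and during alveolar septation, when myofibroblasts deposit it at the tips of the growing septa, and the protein then persists with little turnover.

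Fbln5 was called in 6 of the 19 comparisons, more than any other member, and was the only one called between the genotypes over all arrays, so its promoter is shown. The gene lies at chr12:101746565-101819119 on GRCm38.p6, and the 250 bases before its RefSeq start site, chr12:101819120-101819369 on the minus strand, read as follows, with each GC box (GGGCGG on either strand) in capitals.
Fbln5: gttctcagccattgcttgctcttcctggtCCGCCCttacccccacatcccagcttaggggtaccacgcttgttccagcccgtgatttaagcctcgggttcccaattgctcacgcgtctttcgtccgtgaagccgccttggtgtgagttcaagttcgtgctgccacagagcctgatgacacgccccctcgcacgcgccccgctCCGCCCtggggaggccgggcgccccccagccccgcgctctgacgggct
This window held 2 GC boxes and had a GC content of 65.2%. A GC box occurs in 32.7% of the 32851 promoter windows of that length. Fbln5 held no SMAD box (CAGACA, in 17.1% of the windows), no TATA box (TATAAA, in 12.4%) and no AP-1 site (TGACTCA, in 4.46%) on either strand.

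Signals are given as the authors' MAS5 intensities, a linear scale without a unit, on 1 probe set per gene. Differences are on the log2 scale after an offset of 26.3, which understates the change of dim genes. A gene is called where the adjusted p of a limma fit over all 32 arrays was under 0.05, adjusted over the 13345 genes. Gsr ran from 138 to 257 on the 16 KO arrays and from 498 to 1541 on the 16 WT arrays. Lung epithelial markers, 7 of 7 measured, summed to between 80679 and 162575 on every array. Array medians ran from 68.4 to 124.6, and the arrays have no read depth; their number limits the precision.

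Some arrays stood apart on their controls or on their correlation over all genes. The choice to leave out 3 of them was made after seeing the data, member signals included. The log2 ratio of 3' to 5' signal of the actin and Gapdh controls, which is high where RNA is broken or copied short, was 4.37 in the KO E19 lung of replicate 1 and 2.84 in the WT P56 hyperoxia lung of replicate 2, against -0.06 to 1.55 on the other 30 arrays. The KO lung of replicate 1 labelled P5 air correlated best with a KO lung at E19 (r = 0.976 over genes) and less with its own group (0.961 at most). In turn, 3 E19 arrays correlated best with it: KO replicates 2 (r = 0.976, against 0.944 at most in its own group) and 4 (0.974, against 0.973) and WT replicate 1 (0.974, against 0.937). For the calls that rest on E19 arrays, the range with each array left out in turn is given. The 3 arrays left out below are the 2 of high 3'/5' ratio and KO P5 air replicate 1, which also had the highest Lox signal at P5. KO E19 replicate 2 and WT E19 replicate 1 were kept. Main results that rest on the 3 arrays are given with and without them. RNA of liver-made genes (11 of 12 listed genes measured) summed to between 593 and 11044 in KO and 2979 and 223848 in WT lungs at E19, and to between 548 and 4236 in KO and 23208 and 74113 in WT lungs at P5 in air. At P56 the 3'/5' ratio was 0.54 to 1.55 in KO lungs and 0.21 to 0.36 in WT lungs, the WT array of 2.84 aside.

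Eln is annotated on GRCm38.p6 at chr5:134702595-134747368, Fbn2 at chr18:58008623-58210572 and Lox at chr18:52516060-52529867. Loxl1 lies at chr9:58287723-58313212, Mfap2 at chr4:141010424-141015976, Mfap4 at chr11:61485431-61488708 and Ltbp4 at chr7:27305140-27339720.

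The members were most alike in what happened after P5. By P56 in air, 7 of 8 members had fallen in KO lungs and 5 of 8 in WT lungs, and after hyperoxia 5 of 8 had fallen in KO lungs and 6 of 8 in WT lungs. No member had risen in these 4 comparisons. Over all genes, 14.3% were called lower at P56 in air in KO lungs and 10.8% in WT lungs, and 12.4% and 10.6% in the lungs of KO and WT mice raised in hyperoxia. Counting both directions, 29.6% of all genes were called in KO and 22.9% in WT lungs in air, and 28.6% in KO and 24.0% in WT lungs after hyperoxia. The median change of the 8 members was -1.48 in KO and -0.90 in WT lungs in air, and -0.93 in KO and -0.92 in WT lungs after hyperoxia, while the median over all genes was within 0.04 of 0 in each case. With the 3 arrays left out, 7 members had fallen in KO and 7 in WT lungs in air (19.5% and 17.6% of all genes), and 7 in KO and 6 in WT lungs after hyperoxia (20.0% and 12.9%). A lung piece holds many cell types, so fewer cells of a type and less RNA per cell cannot be told apart.

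**Figure D1:**
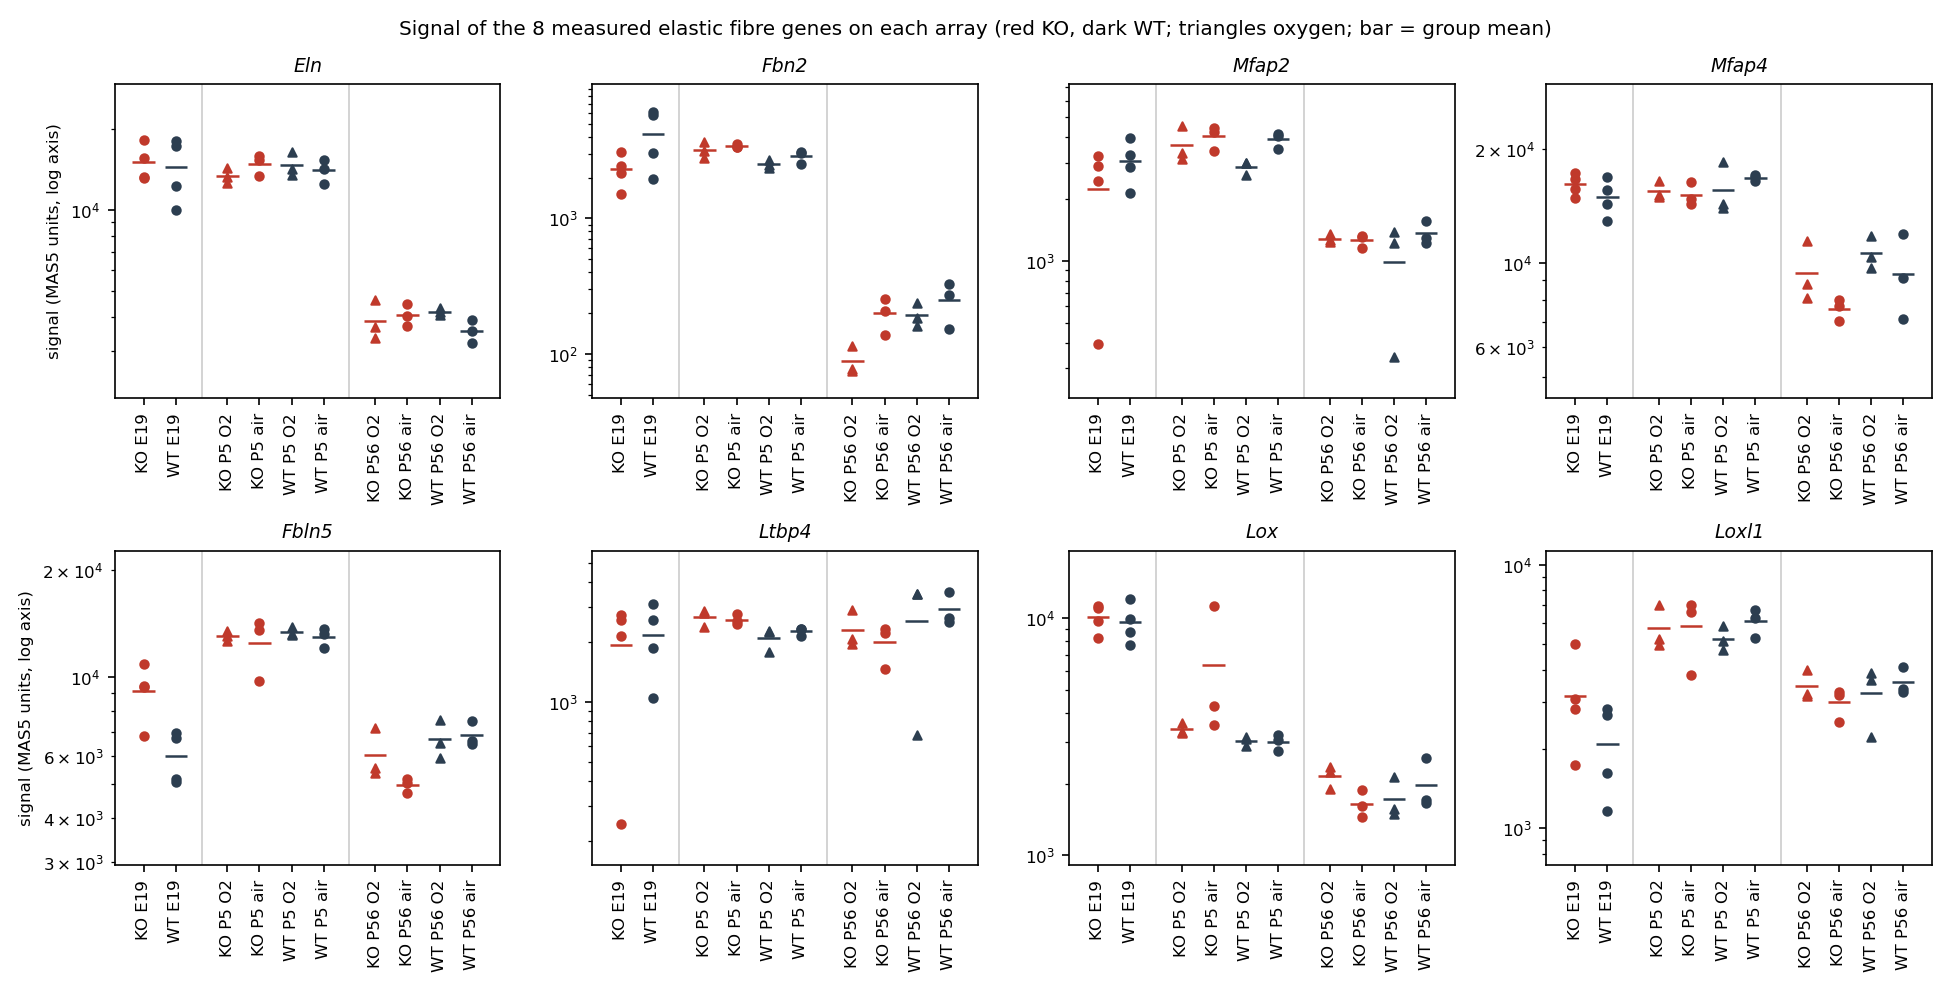
Signal of each of the 8 measured genes on every array, on a log axis in MAS5 units, by age, genotype and exposure, with the group mean as a bar. Eln and Fbn2 drop between P5 and P56 in all 4 pairs of groups, Lox is already lower at P5 apart from 1 KO array at 11280, and Mfap2 and Ltbp4 each have 2 arrays far below the rest of their groups.

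Eln encodes tropoelastin, the core protein. At E19 it read 13194, 13246, 15524 and 18247 in KO lungs, against 18079, 17235, 12232 and 9976 in WT lungs. At P5 in hyperoxia the signals were 12645, 13235 and 14356 in KO and 16376, 14215 and 13442 in WT lungs, and in air 15801, 13349 and 15280 in KO and 15365, 14180 and 12499 in WT lungs. At P56 the 12 arrays lay between 3202 and 4627, below every earlier array.
Eln at P56 averaged 4077 ± 370 in KO and 3552 ± 349 in WT lungs kept in air (SD, n = 3 each), against 14810 ± 1292 and 14015 ± 1440 at P5. The log2 change was -1.85 in KO (SE 0.17, adjusted p = 9.7e-09) and -1.97 in WT lungs (SE 0.17, adjusted p = 4.01e-09), a 3.62-fold lower signal in KO and a 3.92-fold lower signal in WT lungs. After hyperoxia Eln fell, with log2 changes of -1.79 in KO and -1.80 in WT lungs (adjusted p = 1.75e-08 and 2.34e-08). Between E19 and P5 in air the means hardly differed: the change was -0.01 in KO lungs (95% interval -0.34 to 0.31) and 0.00 in WT lungs (-0.33 to 0.33). In the order of its group means Eln divided the P56 groups, 3552 to 4194, from those of E19 and P5, 13412 to 15053, and only at that step did neighbouring groups not overlap.

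Among the microfibril genes, Fbn2 encodes fibrillin-2, a fibrillin made mainly in the fetus. At E19 it read 2168, 1500, 2433 and 3113 in KO lungs, against 6075, 5747, 3053 and 1968 in WT lungs. At P5 the signals were 3649, 3142 and 2807 in KO and 2372, 2706 and 2472 in WT lungs in hyperoxia, and 3365, 3344 and 3529 in KO and 3024, 3065 and 2534 in WT lungs in air. At P56 all 12 arrays were at 330 or below, with 75.0, 76.7 and 115 in KO and 185, 239 and 161 in WT lungs after hyperoxia.
Fbn2 thus had the deepest fall of the members between P5 and P56. It fell, with log2 changes of -3.96 in KO and -3.44 in WT lungs in air (SE 0.31 each, adjusted p = 6.87e-10 and 8.29e-09), and of -4.82 in KO and -3.54 in WT lungs after hyperoxia (SE 0.31 each, adjusted p = 5.26e-11 and 7e-09). At 75.0 to 115 the KO lungs after hyperoxia lay near the median of all values, 100.4, where the offset weighs most.

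Mfap2 encodes MAGP-1, a small glycoprotein bound to fibrillin microfibrils. At E19 its signals were 395, 3216, 2442 and 2902 in KO and 3937, 3260, 2861 and 2147 in WT lungs. At P5 they were 4502, 3335 and 3131 in KO and 2612, 2979 and 2994 in WT lungs in hyperoxia, and 3431, 4215 and 4441 in KO and 4130, 4056 and 3514 in WT lungs in air. At P56 they lay between 1153 and 1562 on 11 of 12 arrays, and at 342 on the WT hyperoxia array of high 3'/5' ratio.
Mfap2 fell, with log2 changes of -1.65 in KO and -1.51 in WT lungs in air (SE 0.48 each, adjusted p = 0.0105 and 0.0227), and of -1.48 in KO and -1.74 in WT lungs after hyperoxia (adjusted p = 0.0214 and 0.00896). With the 3 arrays left out the errors shrank to 0.16 to 0.18, and the changes were -1.76 in KO and -1.51 in WT lungs in air and -1.48 in KO and -1.12 in WT lungs after hyperoxia, all called. A second Mfap2 probe set, which is dimmer and ran from 160 to 792, did not share this: over the 32 arrays it correlated at -0.42 with the one used, and none of its 4 changes between P5 and P56 was called.

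Mfap4 encodes an extracellular protein of the fibrinogen-related family that binds elastin and fibrillin. Its signal was 17274, 16716, 15677 and 14909 in KO and 16871, 15613, 14323 and 12919 in WT lungs at E19. At P5 it was 15123, 16476 and 14950 in KO and 18558, 14359 and 13953 in WT lungs in hyperoxia, and 14341, 14774 and 16433 in KO and 17120, 16855 and 16534 in WT lungs in air. At P56 it was 11438, 8071 and 8780 in KO and 10399, 9710 and 11826 in WT lungs after hyperoxia, and 8005, 7008 and 7676 in KO and 9105, 7123 and 11916 in WT lungs in air, below every P5 array.
Mfap4 fell, with log2 changes of -1.0 in KO and -0.87 in WT lungs in air (SE 0.15 each, adjusted p = 1.14e-05 and 8.69e-05), and of -0.73 in KO and -0.55 in WT lungs after hyperoxia (adjusted p = 0.000471 and 0.00802). The fall of WT lungs after hyperoxia was not called without the P5 replicate 1 at 18558 (-0.42, adjusted p = 0.0761).

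The genes that place elastin on the microfibril differed from each other. Fbln5 encodes fibulin-5, which binds tropoelastin and integrins. At E19 it read 9461, 9385, 6837 and 10872 in KO lungs, against 6726, 6936, 5170 and 5063 in WT lungs. At P5 it read 12617, 13459 and 13072 in KO and 13824, 13179 and 13260 in WT lungs in hyperoxia, and 9770, 13541 and 14180 in KO and 13189, 12071 and 13702 in WT lungs in air. At P56 it was 7166, 5531 and 5375 in KO and 5913, 7551 and 6530 in WT lungs after hyperoxia, and 4716, 5016 and 5146 in KO and 7504, 6593 and 6481 in WT lungs in air.
Fbln5 thus stood highest at P5. Between E19 and P5 in air it rose by 1.13 in WT lungs (SE 0.15, adjusted p = 2.1e-05), where the groups did not overlap. The change of 0.45 in KO lungs was not called (adjusted p = 0.081), and was 0.64 and called without the 3 arrays (adjusted p = 0.00512). From P5 on Fbln5 fell, with log2 changes of -1.31 in KO and -0.92 in WT lungs in air (adjusted p = 6.7e-07 and 1e-04), and of -1.12 in KO and -1.01 in WT lungs after hyperoxia (adjusted p = 5.81e-06 and 2.96e-05). The second Fbln5 probe set also rose in WT lungs between E19 and P5 (0.61, adjusted p = 0.0253) and fell by P56 in KO lungs in air (-0.77) and in WT lungs after hyperoxia (-0.79), while its changes of -0.41 in WT lungs in air (adjusted p = 0.144) and -0.42 in KO lungs after hyperoxia (adjusted p = 0.117) were not called.
Endothelial and arterial markers moved beside Fbln5 around birth. Between E19 and P5 in air 0 of 5 endothelial markers were called in KO lungs and 4 of 5, all higher, in WT lungs, and the list level was -0.20 to 0.26 at P5 and -1.22 to 0.06 at E19 in KO lungs, and -0.03 to 0.07 at P5 and -1.61 to -0.90 at E19 in WT lungs. Of the arterial markers, 0 of 3 tested were called in KO and 2 of 3, higher, in WT lungs. These counts stand against 3.43% of all genes called in KO and 14.6% in WT lungs. By P56 in air 2 endothelial markers were higher in each genotype and 0 lower, while Fbln5 fell. Of all genes, 15.2% were then higher in KO and 12.1% in WT lungs. The part of these cells in the Fbln5 signal was not tested.

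Ltbp4 encodes LTBP-4, which guides fibulin-5 and elastin to microfibrils and holds latent TGF-beta. It read 242, 2593, 2735 and 2147 in KO and 3122, 2601, 1879 and 1049 in WT lungs at E19. At P5 the signals were 2816, 2393 and 2864 in KO and 1789, 2244 and 2273 in WT lungs in hyperoxia, and 2764, 2479 and 2545 in KO and 2340, 2337 and 2147 in WT lungs in air. At P56 they were 2888, 2074 and 1962 in KO and 3482, 686 and 3510 in WT lungs after hyperoxia, and 1470, 2237 and 2339 in KO and 2658, 2526 and 3597 in WT lungs in air.
Ltbp4 was called in none of the 19 comparisons, and its order of levels follows neither age nor exposure. Its change from P5 to P56 in air was -0.39 in KO lungs (95% interval -1.60 to 0.82) and 0.34 in WT lungs (-0.87 to 1.55), and these intervals admit a change of more than 1 log2 unit. Without the 3 arrays the same changes were -0.34 (-0.93 to 0.24) and 0.34 (-0.18 to 0.87). After hyperoxia the change in WT lungs was then 0.74 (adjusted p = 0.0561), against -0.03 with all arrays.

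Mfap2 and Ltbp4 were low where the 3'/5' ratio was high. On the KO E19 array of the highest 3'/5' ratio they deviated from their group means by -2.07 and -2.42 log2 units, and on the WT P56 hyperoxia array by -1.23 and -1.54, while Eln deviated by -0.18 and -0.04. Over all arrays the deviation from the group mean correlated with the 3'/5' ratio at -0.92 for Mfap2 and -0.93 for Ltbp4 (n = 32), and at -0.06 and -0.41 without those 2 arrays (n = 30). For the other members this correlation was between -0.49 (Loxl1) and 0.22 (Fbln5) over all arrays. A second probe set of Eln read 13.6 and 5.13 on the same 2 arrays, against 58.5 to 9093 on the others, while the Eln probe set used here read 13194 and 4075.

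**Figure D2:**
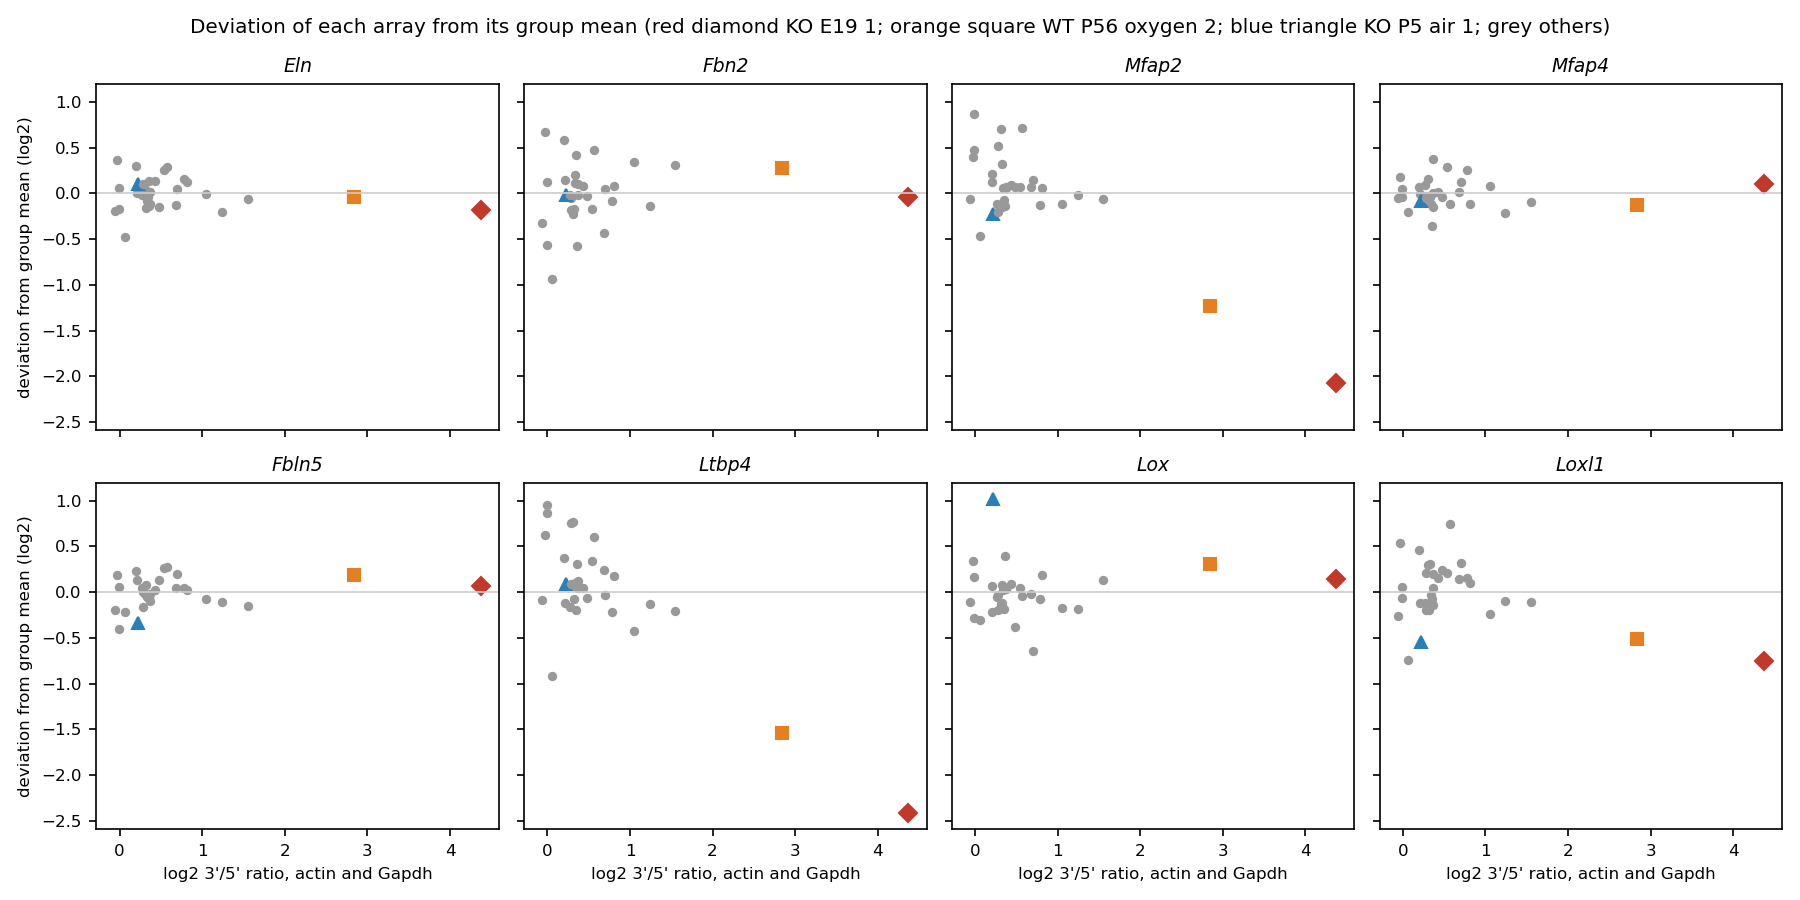
Deviation of each array from its group mean (log2) for each gene, against the log2 ratio of 3' to 5' control signal, with 3 arrays marked. Mfap2 and Ltbp4 lie lowest on the 2 arrays of ratio 2.84 and 4.37, and Ltbp4 also lies at -0.92 on a WT E19 array of ratio 0.06. Lox lies above 0 on the KO P5 air array of replicate 1.

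The cross-linking enzymes took opposite courses around birth. Lox encodes lysyl oxidase. At E19 it read 11060, 11308, 8267 and 9778 in KO and 12005, 9949, 8784 and 7704 in WT lungs. At P5 it read 3604, 3287 and 3323 in KO and 2892, 3088 and 3160 in WT lungs in hyperoxia, and 11280, 4272 and 3556 in KO and 3205, 3069 and 2761 in WT lungs in air. At P56 it read 2237, 1903 and 2369 in KO and 1500, 2131 and 1563 in WT lungs after hyperoxia, and 1457, 1879 and 1615 in KO and 1657, 1707 and 2566 in WT lungs in air.
Lox thus fell by 1.65 between E19 and P5 in WT lungs in air (SE 0.25, adjusted p = 8.14e-05), a 3.14-fold lower signal with no overlap. In KO lungs the change was -0.85 (adjusted p = 0.0513), and -1.31 without the 3 arrays, then called (adjusted p = 1.44e-05). The KO P5 air array of replicate 1, at 11280, lay in the E19 range of 7704 to 12005 and above every other P5 array, and its second Lox probe set read 7695 against 2623 and 2014. Between P5 and P56 Lox fell, with a change of -1.74 in KO lungs in air (adjusted p = 1.44e-05, and -1.23 without the 3 arrays) and of -0.82 in WT lungs after hyperoxia (adjusted p = 0.0224). The changes of -0.63 in WT lungs in air and -0.65 in KO lungs after hyperoxia were not called (adjusted p = 0.0867 and 0.0649). Without the 3 arrays both were the same size and called (adjusted p = 0.00331 and 0.00204).

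Loxl1 encodes lysyl oxidase like 1, the family member tied to elastin maintenance in mice. At E19 its signals were 1744, 3096, 2840 and 4991 in KO lungs, against 2844, 2690, 1626 and 1162 in WT lungs. At P5 they were 7026, 5235 and 4973 in KO and 5835, 5117 and 4730 in WT lungs in hyperoxia, and 3827, 6637 and 7035 in KO and 6754, 6272 and 5290 in WT lungs in air. At P56 they were 3983, 3221 and 3187 in KO and 3646, 2213 and 3895 in WT lungs after hyperoxia, and 2522, 3212 and 3297 in KO and 3283, 3377 and 4087 in WT lungs in air.
Loxl1 rose by 1.63 between E19 and P5 in WT lungs (SE 0.29, adjusted p = 0.000437), a 3.08-fold higher signal, while Lox fell in the same lungs. In KO lungs the change of 0.92 was not called (adjusted p = 0.0689), and at 0.95 was called without the 3 arrays (adjusted p = 0.0145). By P56 Loxl1 had fallen in KO lungs in air (-0.91, adjusted p = 0.0272), with changes of -0.76 in WT lungs in air and -0.72 in both genotypes after hyperoxia that were not called (adjusted p = 0.076 to 0.0934). Without the 3 arrays the changes in WT lungs in air (adjusted p = 0.0159) and in KO lungs after hyperoxia (adjusted p = 0.0197) were called. That in WT lungs after hyperoxia was not (-0.46, adjusted p = 0.214). The second Loxl1 probe set changed by -0.50 in KO lungs in air, which was not called (adjusted p = 0.319). Its changes of -0.17 in WT lungs in air, and of -0.57 in KO and -0.11 in WT lungs after hyperoxia, were not called either. Every P56 air array of the Loxl1 probe set used was below every P5 air array of its genotype. In that comparison the groups of all 8 members were without overlap in KO and in WT lungs, those of the uncalled Ltbp4 included, so nothing is read from it.

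Between E19 and P5 in air, then, 0 of 8 members were called in KO lungs and 3 of 8 in WT lungs, Fbln5 and Loxl1 higher and Lox lower, against 3.43% and 14.6% of all genes (8.34% called higher and 6.24% lower in WT lungs). In KO lungs 2.22% of all genes were called higher and 1.21% lower, and 5 of 8 members had an unadjusted p under 0.05, against 20.6% of all genes. Leaving out 1 array at a time, the 3 WT calls stood in 7 of 7 settings, with 1.06 to 1.21 for Fbln5, 1.38 to 1.80 for Loxl1 and -1.75 to -1.54 for Lox. Without the 3 arrays, a choice made after seeing the data, 4 members were called in KO lungs, Fbln5, Loxl1 and Mfap2 higher and Lox lower. The 3 WT calls stood, and 20.9% of all genes were called in KO and 27.3% in WT lungs. Whether the step around birth differs by genotype was tested as an interaction, and called for 0 of 8 members (0.187% of all genes), with the lowest adjusted p at 0.222 for Fbln5 (-0.68, 95% interval -1.11 to -0.25). The same term for P5 to P56 in air called 0 of 8 members (0% of all genes), with Lox at -1.12 (adjusted p = 0.262), or -0.61 without the 3 arrays (adjusted p = 0.216).

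**Figure D3:**
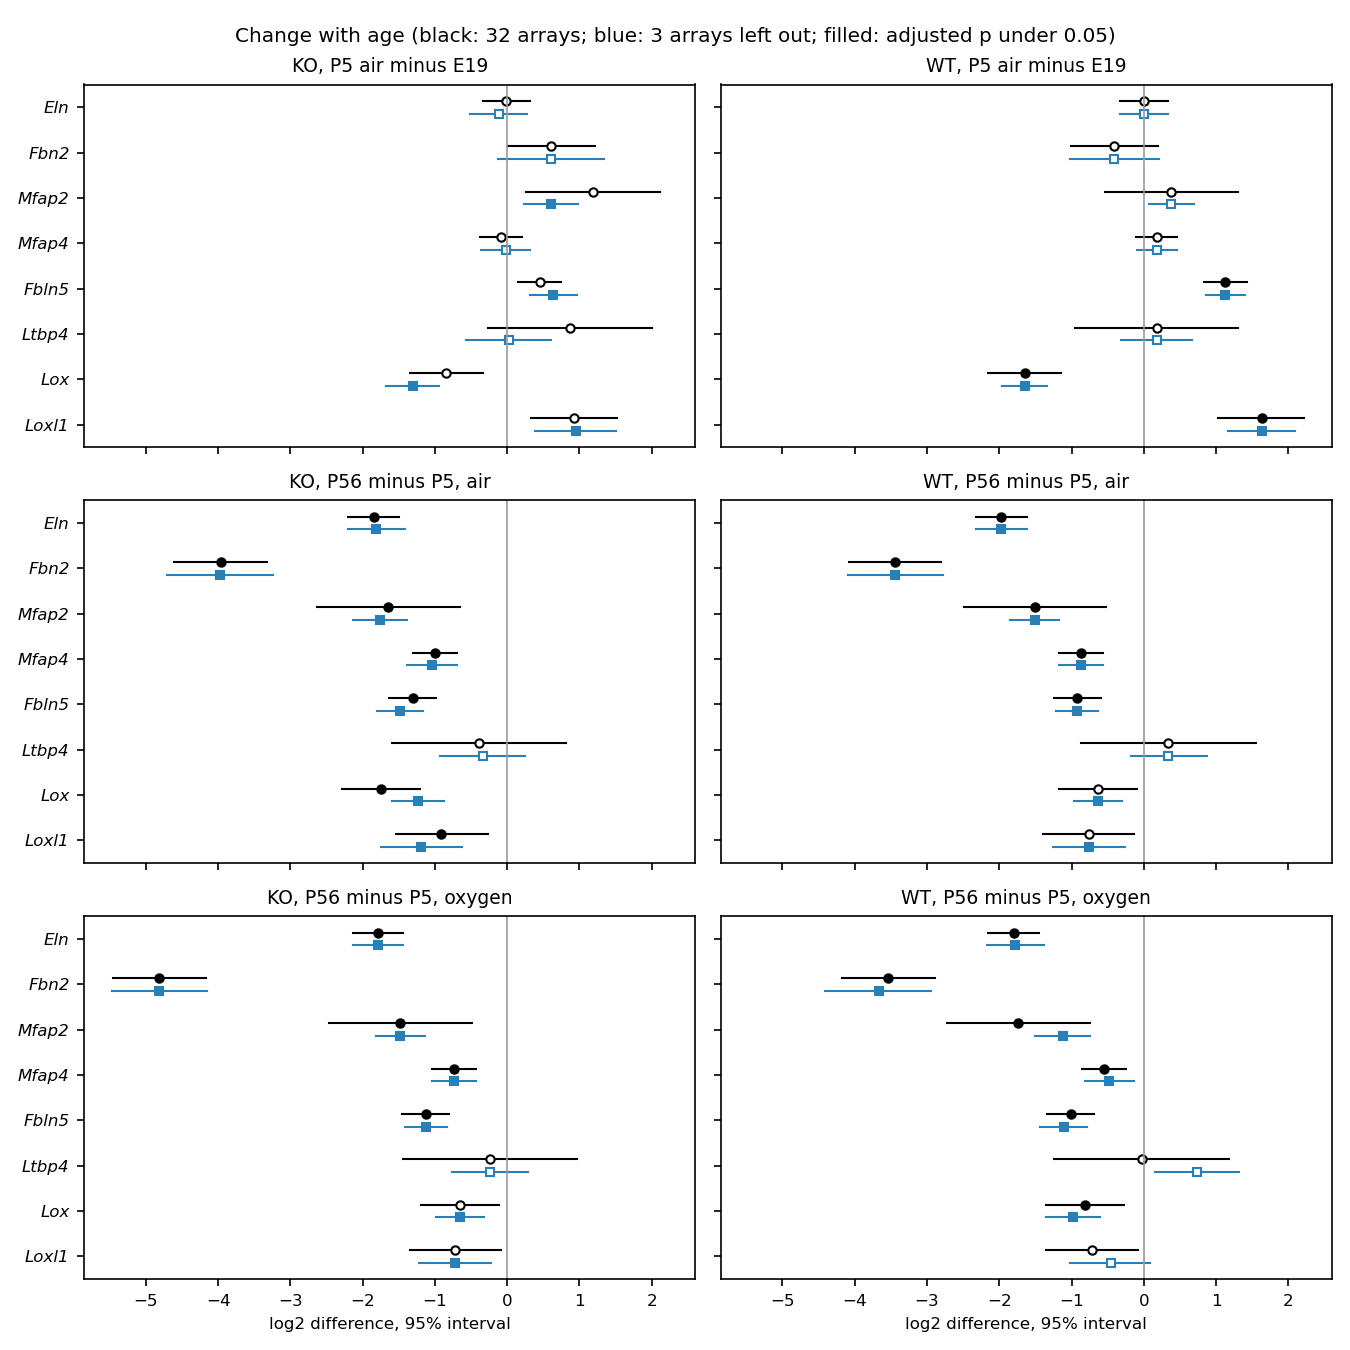
Change with age in log2 units with 95% intervals for each gene in KO (left) and WT (right) lungs, over all 32 arrays (black) and with 3 arrays left out (blue); filled marks have an adjusted p under 0.05. Between P5 and P56 the marks of all genes but Ltbp4 lie left of 0, and between E19 and P5 Lox lies left of 0 and Fbln5 and Loxl1 right of it.

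Between the genotypes at E19, 1 of 8 members was called, against 15.2% of all genes (6.91% called higher and 8.25% lower). Fbln5 averaged 9139 ± 1680 in KO lungs and 5974 ± 995 in WT lungs (SD, n = 4 each), a difference of 0.61 (SE 0.14, adjusted p = 0.00343) or 1.52-fold, and the lowest KO lung, 6837, lay just under the highest WT lung, 6936. The 4 WT lungs differed in liver RNA, and with the liver level as a covariate the difference was 0.41 (adjusted p = 0.236). When no other age entered the fit it was 0.61 (adjusted p = 0.214). Leaving out 1 E19 array at a time it was 0.52 to 0.74 and called in 8 of 8 settings. The second Fbln5 probe set differed by 0.22 and was not called (adjusted p = 0.389). Endothelial markers were higher in KO than in WT lungs at E19 for 3 of 5 genes (Cdh5, Tek and Car4), and arterial markers for 2 of 3 tested, and their part in the difference was not tested.
Loxl1 averaged 3168 ± 1350 in KO and 2080 ± 818 in WT lungs, a difference of 0.59 that was not called (adjusted p = 0.133), and was called in 1 of 8 settings that left out 1 array. These gave 0.34 (adjusted p = 0.42, without WT replicate 4) to 0.85 (adjusted p = 0.0305, without the KO array of high 3'/5' ratio). Its second probe set read 242, 168, 163 and 218 in KO lungs, against 111, 126, 83.1 and 6.02 in WT lungs, a difference of 1.26 (adjusted p = 0.0078) with no overlap. Fbn2 averaged 2304 ± 667 in KO and 4211 ± 2017 in WT lungs, a difference of -0.77 that was not called (adjusted p = 0.0556). The 2 highest WT lungs, 6075 and 5747, were above every KO lung, and the lowest, 1968, was below 3 of the 4. Leaving out 1 array at a time, the Fbn2 difference ran from -1.08 without that lowest WT lung (adjusted p = 0.00801) to -0.54 without the highest (adjusted p = 0.176), and was called in 2 of 8 settings. The second Fbn2 probe set differed by -0.90 (adjusted p = 0.1).

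Mfap2 at E19 differed by -0.76 (adjusted p = 0.213), and by -0.07 (95% interval -0.39 to 0.24) without the 3 arrays. Eln differed by 0.09 (-0.21 to 0.40), Lox by 0.08 (-0.39 to 0.55) and Mfap4 by 0.12 (-0.15 to 0.38), so that for these 3 the intervals reach at most 0.55 log2 units. Ltbp4 differed by -0.50 (-1.55 to 0.55), or 0.30 (-0.19 to 0.80) without the 3 arrays.

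After birth no member was called between the genotypes. The counts were 0 of 8 at P5 in hyperoxia (0.187% of all genes), 0 of 8 at P5 in air (0.0150%), 0 of 8 at P56 after hyperoxia (0.0300%) and 0 of 8 at P56 in air (0.0599%). Without the 3 arrays they were again 0 of 8 each, against 0.232%, 0.0225%, 0.0599% and 4.53% of all genes. At an unadjusted p under 0.05 there were then 0, 1, 3 and 2 of 8 members, against 6.35%, 5.2%, 13% and 21.7% of all genes. Over all arrays there were 0, 1, 1 and 1 of 8 members at such a p, against 3.01%, 5.55%, 8.7% and 11.9% of all genes. Nothing is read from these counts, and the values over all arrays are a description. At P5 in air this was Lox, 6369 ± 4268 in KO and 3012 ± 228 in WT lungs (0.88, adjusted p = 0.599), a difference of 0.37 without the 3 arrays (adjusted p = 0.948). At P56 in air it was Fbln5, 4959 ± 221 in KO and 6860 ± 561 in WT lungs, with every KO lung below every WT lung (-0.46, SE 0.16, adjusted p = 0.223, or 0.056 without the 3 arrays).
At P56 after hyperoxia it was Fbn2, 88.9 ± 22.6 in KO and 195 ± 39.7 in WT lungs, again without overlap (-0.94, SE 0.31, adjusted p = 0.42). Groups of KO and WT lungs did not overlap for 4 members at P5 in hyperoxia, 4 at P5 in air, 1 at P56 after hyperoxia and 2 at P56 in air, against 18.5%, 17.8%, 16.8% and 34.5% of all genes. For Fbn2, Lox and Ltbp4 the KO lungs were the higher at P5 in both exposures; Mfap2 was higher in KO lungs in hyperoxia and Mfap4 lower in KO lungs in air. With the 3'/5' ratio as a covariate 0 members were called at P56 in either exposure.

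**Figure D4:**
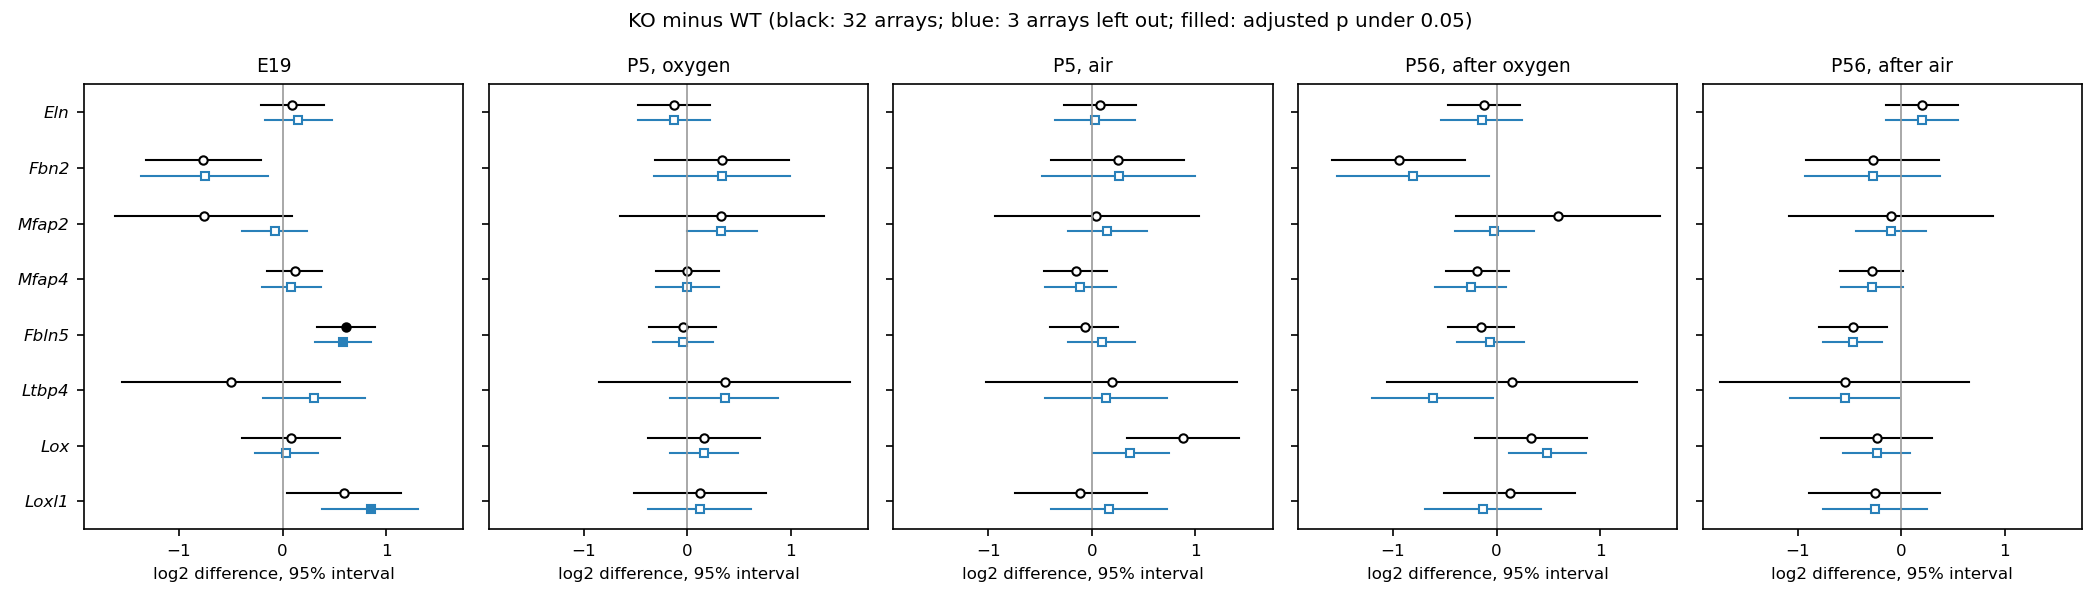
KO minus WT difference in log2 units with 95% intervals for each gene at each age and exposure, over all 32 arrays (black) and with 3 arrays left out (blue); filled marks have an adjusted p under 0.05. Fbln5 at E19, 0.61, is the only filled mark over all arrays, and Loxl1 at E19 is filled with 3 arrays left out.

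Neonatal oxygen is known to disturb elastin assembly in newborn animals, and the design asks whether these transcripts moved with it. No member was called in any of the 4 comparisons of hyperoxia with air: 0 of 8 in KO and 0 of 8 in WT lungs at P5 (0.337% and 0.00749% of all genes), and 0 of 8 in both genotypes at P56 (0% of all genes in each). At an unadjusted p under 0.05 there was 1 member in KO lungs at P5 and 1 in KO lungs at P56, and 0 in WT lungs at either age. Over all genes 5.85% and 2.72% had such a p in the 2 KO comparisons, and 3.09% and 5.07% in the WT comparisons at P5 and P56. Without the 3 arrays there were 0 members in KO lungs at P5 and 2 at P56, against 5.97% and 6.57% of all genes. In WT lungs there were then 1 at P5 and 0 at P56, against 6.61% and 3.67%.
At the end of the exposure Eln averaged 13412 ± 869 in hyperoxia and 14810 ± 1292 in air in KO lungs, and 14678 ± 1521 in hyperoxia and 14015 ± 1440 in air in WT lungs. The differences of -0.14 (95% interval -0.49 to 0.21) and 0.07 (-0.28 to 0.42) leave room for a change of at most 0.49 log2 units either way. For Mfap4 and Fbln5 the intervals at P5 lay between -0.42 and 0.41 in both genotypes. For Loxl1 they lay between -0.86 and 0.65, and for Ltbp4 between -1.33 and 1.26. Without the 3 arrays, which widen the spread that all groups share in the fit, the Ltbp4 intervals were -0.49 to 0.68 in KO and -0.65 to 0.41 in WT lungs.

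Lox at P5 averaged 3404 ± 173 in hyperoxia and 6369 ± 4268 in air in KO lungs, and the difference of -0.70 (unadjusted p = 0.0124, adjusted p = 0.577) was -0.19 (95% interval -0.56 to 0.17) without the 3 arrays. Mfap2 at P5 in WT lungs read 2612, 2979 and 2994 in hyperoxia, each below the 4130, 4056 and 3514 in air. That difference of -0.44 was not called (adjusted p = 1, or 0.643 with an interval of -0.78 to -0.10 without the 3 arrays). It was the only member whose groups did not overlap in WT lungs at P5, against 17.2% of all genes.
At P56, weeks after the exposure, Fbn2 in KO lungs averaged 88.9 ± 22.6 after hyperoxia and 199 ± 58.2 after air, with no overlap and a difference of -0.95 (unadjusted p = 0.00515, adjusted p = 1). Fbln5, Lox and Mfap4 in KO lungs were higher after hyperoxia on every array than on any air array, with differences of 0.27, 0.39 and 0.30 and adjusted p = 1 each. On the probe sets used, such separation was found for 4 of 8 members in KO lungs and 1 of 8, Eln, in WT lungs (15.7% and 14.6% of all genes). The second Lox probe set did separate in WT lungs, at 804.5, 420.2 and 865.3 after hyperoxia and 1522, 1252 and 1545 after air. Its difference there was -1.08 (SE 0.36, adjusted p = 0.806), against -0.18 on the probe set used. In KO lungs the second Lox probe set differed by -0.07. Eln in WT lungs read 4170, 4075 and 4335 after hyperoxia, against 3554, 3900 and 3202 after air (0.24, 95% interval -0.11 to 0.59, adjusted p = 0.805).
The genotype by oxygen term was called for 0 of 8 members at P5 (0.135% of all genes) and 0 of 8 at P56 (0% of all genes). At either age 0 members had an unadjusted p under 0.05, against 2.32% of all genes at P5 and 2.47% at P56. Without the 3 arrays 1 member had such a p at P56, Lox at 0.72 (95% interval 0.23 to 1.22, not called), against 4.46% of all genes. Over all arrays the intervals of this term for Eln ran from -0.70 to 0.29 at P5 and from -0.82 to 0.18 at P56.

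**Figure D5:**
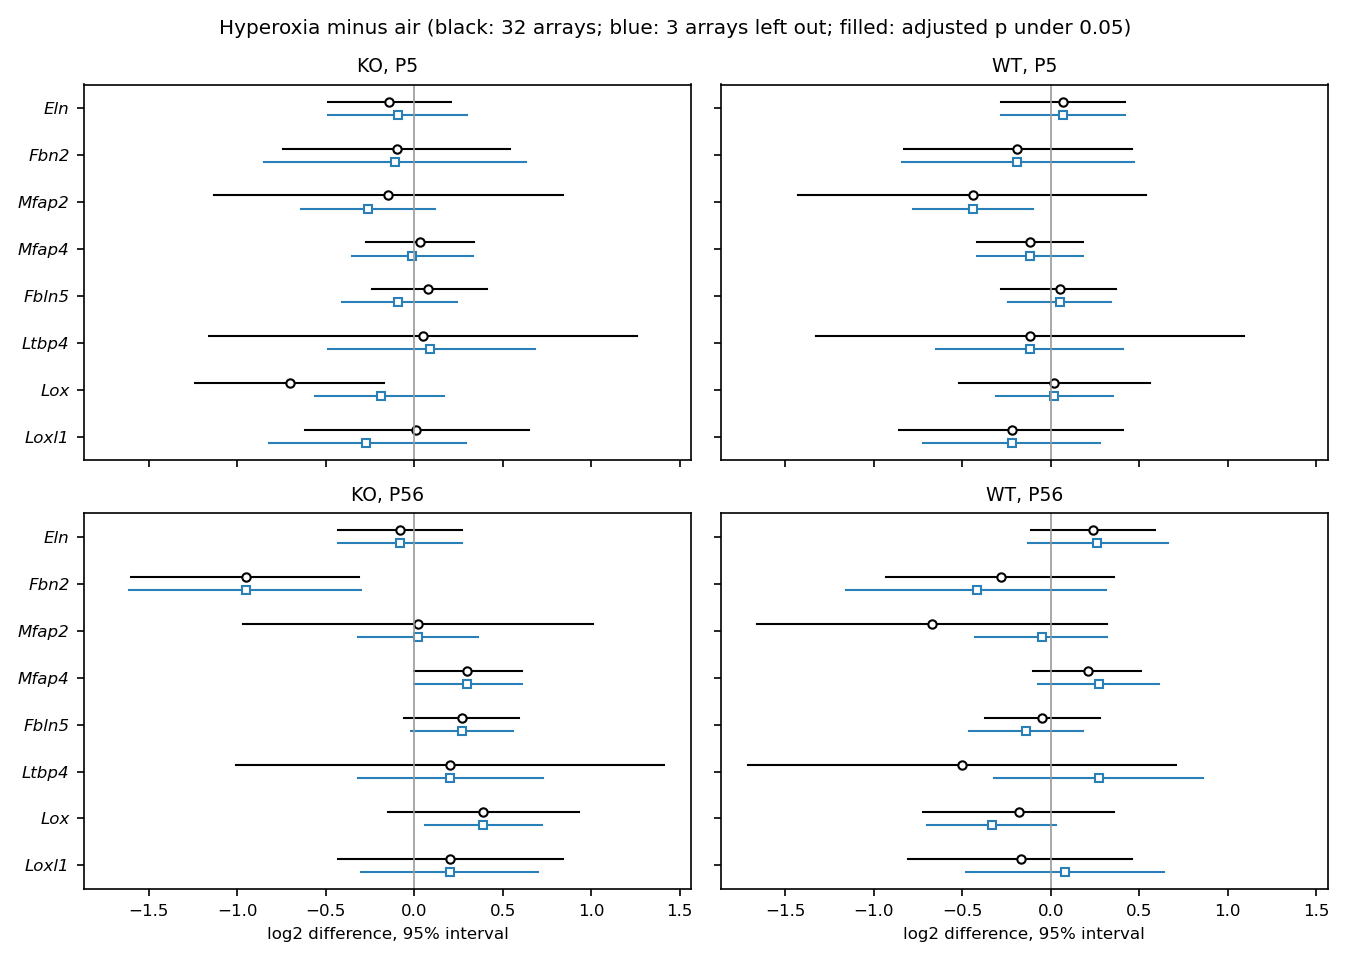
Hyperoxia minus air difference in log2 units with 95% intervals for each gene in KO (left) and WT (right) lungs at P5 and P56, over all 32 arrays (black) and with 3 arrays left out (blue). No mark is filled, which would show an adjusted p under 0.05, and Fbn2 in KO lungs at P56 lies farthest from 0 at -0.95.

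Markers of cells that make matrix changed between P5 and P56 as well, in both directions. Of the 10 myofibroblast and smooth muscle markers, all measured, 4 were lower and 0 higher at P56 in air in KO lungs, and 5 lower and 1 higher in WT lungs. Actg2, Tgfbi, Hhip and Aspn were lower in both genotypes, Acta2, smooth muscle actin, was called lower in WT lungs, and Pdgfra, a receptor of fibroblasts and their precursors, was higher in WT lungs. Of the 10 matrix fibroblast and lipofibroblast markers, 7 were lower and 2 higher in KO lungs, and 6 lower and 2 higher in WT lungs, with Plin2 and Ces1d the higher ones in both. Over all genes 14.3% were lower and 15.2% higher in KO lungs, and 10.8% lower and 12.1% higher in WT lungs.
The list level of the myofibroblast markers (the mean over the list of log2 signals centred on each gene) was -0.63 to 0.14 in KO and -0.60 to 0.70 in WT lungs at E19, 0.11 to 0.97 over the P5 arrays and -0.60 to -0.19 over the P56 arrays. At E19 it thus overlapped both later ages, while the Eln means of E19 and P5 hardly differed. Called higher at P5 in air than at E19 were 3 of the 10 markers in KO lungs (Tagln, Myh11 and Actg2). In WT lungs 2 were called higher (Acta2 and Aspn), and 0 were lower in either genotype. The shares of all genes called higher were 2.22% in KO and 8.34% in WT lungs. The level of the matrix fibroblast list was 0.07 to 0.46 in KO and -0.11 to 0.37 in WT lungs at E19, 0.15 to 0.40 at P5 and -0.47 to -0.23 at P56. The part of these cells in the falls of Eln and the other members was not tested. In KO lungs at P5 in hyperoxia the myofibroblast list reached 0.40 to 0.97, against 0.11 to 0.68 in KO lungs in air, and striated muscle genes (11 of 11 measured) 1.77 to 2.18 against -0.69 to 0.53. Squamous epithelial genes (7 of 8 measured) reached 2.22 to 2.79 there, against -0.82 to -0.18 in air. In KO lungs at P5, 6 of 11 striated muscle and 5 of 7 squamous genes were called higher in hyperoxia than in air. Of all genes, 0.337% were called there in either direction. Replicate 1 of the WT lungs reached such squamous levels at P5 in air and at E19, and such striated muscle levels at P5 in air but not at E19. The squamous list ran from -0.31 to 2.62 in WT lungs at P5 in air and from -0.22 to 2.91 in WT lungs at E19. The striated muscle list ran from -0.20 to 1.91 and from -1.33 to 1.26 in the same groups. The part of these tissues in the member signals was not tested.

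Across the 32 arrays the genes whose log2 signal was most like that of Eln were Fstl1 (r = 0.980), Obsl1 (0.977), Peg3 (0.969), Fbn2 (0.967) and Adamts12 (0.962), and over the 10 group means their r was 0.977 to 0.995. Fstl1, a secreted follistatin-like glycoprotein, averaged 4034 ± 268 in KO and 4146 ± 85.2 in WT lungs at P56 in air, against 13171 ± 1438 and 12983 ± 935 at P5. Adamts12, a secreted metalloprotease, averaged 96.0 ± 19.7 in KO and 104 ± 3.53 in WT lungs at P56 in air, against 1014 ± 87.3 and 805 ± 97.8 at P5. Of the other members, Mfap4 had an r of 0.894 with Eln, Lox 0.748, Mfap2 0.712, Fbln5 0.679, Loxl1 0.274 and Ltbp4 -0.034. These correlations follow the ages, which the arrays share.
Within groups, as deviations from the group mean over the 29 arrays without the 3, Eln went with Fbn2 (r = 0.75) and Loxl1 (0.75), and Loxl1 with Mfap2 (0.70). The WT E19 lungs weigh heavily in these values. From replicate 1 to 4 they deviated by 0.37, 0.30, -0.19 and -0.48 for Eln. For Fbn2 the deviations were 0.67, 0.59, -0.32 and -0.94, and for Loxl1 0.54, 0.46, -0.26 and -0.74. The r without this group was not computed. Mfap4 and Fbn2 had an r of -0.10.

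Other genes of the pathway came from 5 lists, whose counts in air stand against 14.3% lower and 15.2% higher in KO lungs and 10.8% lower and 12.1% higher in WT lungs over all genes at P56, and against 6.91% higher and 8.25% lower in KO than in WT lungs at E19. Of 23 measured genes of the fibre and microfibril (27 listed), 5 were higher and 7 lower at P56 than at P5 in air in KO lungs, and 5 higher and 6 lower in WT lungs. Vcan, the proteoglycan versican, fell, with log2 changes of -3.25 in KO and -3.34 in WT lungs, and Fbln2, fibulin-2, fell as well (-1.90 and -2.09), while Efemp1, fibulin-3, rose by 2.31 in KO and 1.66 in WT lungs (adjusted p at most 0.00958 for the KO and 0.00583 for the WT changes). Between E19 and P5 in air 2 of these 23 were higher in KO lungs, Vcan (1.43) and Ltbp2 (1.28). In WT lungs 6 were higher and 1 lower, Mfap5, a microfibril glycoprotein, by 1.83 and Adamtsl2 by -1.75 among them. Of all genes, 2.22% were then higher in KO lungs, and 8.34% higher and 6.24% lower in WT lungs. At E19, Adamtsl4 (0.89) and Mfap3l (0.92) were higher in KO than in WT lungs, and no other gene of this list was called.

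Of 11 measured genes that process or supply cross-linking (13 listed), 4 were lower at P56 in air in KO lungs and 5 in WT lungs, and 0 were higher. Loxl3, another lysyl oxidase, fell, with log2 changes of -0.93 in KO and -1.18 in WT lungs, and Bmp1, the protease that activates lysyl oxidase, fell too (-0.90 in KO and -1.23 in WT lungs). At E19 Bmp1 was lower (-0.68), and Postn, periostin (0.63), and Furin, a proprotein convertase (0.54), were higher in KO than in WT lungs.
Of 12 measured genes listed for elastin breakdown (14 listed), 4 were higher and 2 lower at P56 in air in KO lungs. In WT lungs 1 was higher and 2 lower. The higher gene in WT lungs was Adam17 (0.42, adjusted p = 0.049), a membrane protease that is not itself an elastase. The lower ones in both were the matrix metalloproteases Mmp14 (-1.96 in KO, -1.67 in WT) and Mmp2 (-1.81 in KO, -1.0 in WT). At E19 the neutrophil granule proteases Prtn3 (-2.61), Ctsg (-2.54) and Elane (-2.30) were lower in KO than in WT lungs, whose liver RNA was also higher on 3 of 4 arrays, and Ctss, cathepsin S, was higher (0.94). Of 12 measured elastase inhibitors (16 listed), 4 were higher and 0 lower at P56 in air in KO lungs and 4 higher and 3 lower in WT lungs. The 3 were the liver-made Serpina1b, Serpina1c and A2m, which were also lower in KO than in WT lungs at E19, with changes of -4.49 to -4.46, beside the difference in liver RNA. Slpi, an inhibitor made by airway epithelium, rose by 2.77 in KO and by 2.42 in WT lungs.
Of 19 genes of TGF-beta signalling (19 listed), 4 were lower at P56 in air in KO lungs and 1 in WT lungs, Tgfb2 in both (-1.49 and -0.81). At E19 Smad4 (0.75) and Tgfbr3 (0.69) were higher and Tgfb2 (-0.62) lower in KO than in WT lungs. In none of the 4 comparisons of hyperoxia with air was any gene of the 5 lists called.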

How the data were processed

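The authors deposited 1 intensity per probe set and array on a linear scale, for 45101 probe sets, and MAS5 is named per the submitters' processing notes. The mean of each array without the lowest and highest 2% was 500.0, as read from the values. Software version, detection calls, scan dates and sex are not given in the sources used here. Arrays were grouped from the labels. The labels call each array a biological replicate, with RNA from 1 mouse.

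With R 4.3.3 and limma 3.58.1, log2 was taken after adding 26.3, the value below which 25% of all signals lie. Probe sets were kept if 3 or more arrays exceeded 100.4, the overall median, and each gene with 1 symbol was represented by its probe set with the highest mean log2 signal. This gave 13345 genes. All 32 arrays entered 1 fit with a mean per group, 22 residual degrees of freedom and a trended variance prior, with 19 two-sided contrasts and Benjamini-Hochberg adjustment over all genes. Probe sets were named from the platform annotation of GEO, and positions and the promoter come from RefSeq (GRCm38.p6); all 8 measured members had a position.

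Signal levels are not compared between genes, and where a gene has a second probe set, its changes are set beside those of the one used. The scripts were tested on simulated data. The members and lists were chosen with earlier results of these data known. Genes named are the 10 members, up to 4 called genes of each of 5 pathway lists per comparison, the 5 genes most like Eln, Gsr, and markers of tissues that move with a member. Alternatives changed the filter, offset, scaling, probe set, arrays fitted, variance prior, array weights, replicate block and covariates (liver level, 3'/5' ratio), or left out arrays. Those that left out both or all 3 of the arrays standing apart together, or used the 3'/5' ratio as a covariate, were chosen after seeing the data. Replicate numbers did not pair the arrays: of 46 pairs of same-numbered arrays, 10 had deviations that correlated above 0.1 (range -0.41 to 0.27). The exception was 1 of 15 comparisons, KO against WT at P5 in hyperoxia, where all 3 pairs did (0.11 to 0.25).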

Additional observations from a re-analysis of the deposited data

Results flagged for a closer look

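In the KO lungs at E19, 1 array lay far from the other 3 for 2 genes. Mfap2 read 395 on replicate 1, against 2442 to 3216 on the others, a gap of 0.866 of the group's range, and Ltbp4 read 242, against 2147 to 2735, a gap of 0.897. Both exceed the 95% critical value of Dixon's test for 4 samples. Groups of 4 exist at E19 only, so 16 sets of values (8 genes in 2 groups) were examined, and chance flags about 1 in 20 groups. This array also had the highest 3'/5' ratio of the control probe sets, 4.37. On the same array Eln read 13194, Fbln5 9461 and Mfap4 17274, inside or near the range of the other 3, while Loxl1 read 1744, against 2840 to 4991.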

How the results depend on the processing

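Of 257 recomputed counts of members called, 235 stayed within 1.5 times the reported count and 22 did not. KO against WT at E19 (1 called) gave 2 with an offset of 100, quantile scaling, centring on array medians, array weights, both arrays of high 3'/5' ratio left out or all 3 arrays left out. It gave 3 with the 3'/5' ratio as a covariate and 0 with only the groups compared or the liver level as a covariate, and 1 to 2 leaving out 1 array in turn. P5 air against E19 in KO (0 called) gave 1 with an offset of 100 or quantile scaling, 4 with array weights or 3 arrays left out, 3 with the 3'/5' covariate, and 0 to 3 leaving out 1 array, with 3 without KO P5 air replicate 1 and 2 without KO E19 replicate 4. KO against WT at P56 in air (0 called) gave 1 with only the groups compared or array weights. Array weights also gave 1 for KO against WT at P5 in air, 5 for KO against WT at P56 after hyperoxia, 1 each for hyperoxia against air in KO at P5, in WT at P5 and in KO at P56, and 2 for the genotype by maturation term. They called 4717 of all genes in KO against WT at P56 after hyperoxia, where the reported fit called 4. The cause was not tested. Centring on array medians moved the median of all genes at E19 to 0.23, from -0.05, and ended the calls of Lox (-0.62) and Mfap4 (-0.34) in WT lungs between P5 and P56 in hyperoxia.

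The second probe set turned the direction of Mfap2 between P5 and P56 to 0.55 in KO lungs after hyperoxia, 0.56 in WT lungs in air and 0.30 in WT lungs after hyperoxia, none called. It kept the direction of the other members' calls it measures but ended 5 of them: Fbln5 at E19 at 0.22 (adjusted p = 0.389), and between P5 and P56 Eln in WT air at -2.82 (0.0933), Fbln5 in WT air at -0.41 (0.144) and in KO hyperoxia at -0.42 (0.117), and Loxl1 in KO air at -0.50 (0.319). Leaving out 1 array ended at least 1 call of Mfap2, Lox, Loxl1 or Mfap4 between P5 and P56, and none of Eln, Fbn2 or Fbln5. With the replicate number as a block, no member count changed, and Fbln5 at E19 stayed at 0.61 (adjusted p = 0.00547). The number of arrays and the dim signal of Fbn2 at P56 limit what could be seen.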
